A study of Mus musculus with 12 samples.

Results

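The genes described here are 10 macrophage genes of lipid handling and scavenging, chosen by name from the 31053 genes in the count table. They were Trem2, Msr1, Cd36, Mrc1 and Folr2, which encode surface receptors, Gpnmb, which encodes a membrane glycoprotein, and Apoe, Lpl, Fabp5 and Spp1, which encode lipid carriers, a lipase and a secreted ligand. The cells came from C57BL/6 mice that carried subcutaneous MC38 tumors, a colon carcinoma line of the same strain. The mice received PF-06821497, an inhibitor of the histone methyltransferase EZH2, at 100 mg/kg daily for 7 or 16 days, or vehicle for the same 7 or 16 days, with 3 mice in each of the 4 groups. All tumors were taken on day 17 and enriched for CD45+ cells with magnetic beads before single-cell RNA sequencing of transcript 3′ ends. Each barcode carries a library number from 1 to 12, and the labels do not tie these numbers to mice, so no treatment was compared and every value below is given by library number or as a range with the median.

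Macrophages in a tumor engulf dying cells and take up modified lipoproteins, and they must then store, export or burn the lipid that arrives. Scavenger receptors such as MSR1 and CD36 bind these cargoes, and the mannose receptor MRC1 takes up glycoproteins. TREM2 senses lipids and apolipoproteins at the surface, and APOE carries cholesterol out of the cell. Cells with high Trem2, Gpnmb, Spp1 and Fabp5 are often described as lipid-associated macrophages, and cells with Mrc1 and Folr2 as tissue-resident or perivascular ones.

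Of 140639 barcodes, 128912 passed the limits on genes and mitochondrial counts. The macrophage gate asked for at least 2 unique molecular identifiers (UMIs) of Adgre1 and Csf1r together and none of the Cd3 genes. It held 76715 cells, 59.5% of those kept, with 44.3 to 79.9% per library (median 69.3%). The median macrophage had 6738 UMIs, and this depth ran from 2750 in library 6 to 20496 in library 8. The other gates, set on lineage UMIs with at most 1 UMI of Adgre1 and Csf1r, were much smaller: 1705 monocytes, 2343 dendritic cells and 2237 neutrophils, with 50 cells or more in 7, 12 and 10 libraries. Median depth was 2873, 4306 and 1373 UMIs per cell in these gates. Marker genes were highest in the gate they name for 5 of 6 macrophage, 4 of 5 monocyte, 4 of 5 dendritic cell and 5 of 5 neutrophil genes. The exceptions were Fcgr1, which was at 813 UMIs per 1000000 UMIs (CPM) in monocytes and 394 in macrophages, Hp, which was highest in neutrophils, and Cd209a, which was highest in monocytes. The gates did not use these genes, except that the monocyte gate asked for Ly6c2 at or above C1q and so had low C1qa, 1 of the 6 macrophage genes, by definition. A gate for keratin-positive cells held 18 cells and was not used. Cell barcode sequences found in more than 1 library belonged to 4547 of the barcodes. Without them the numbers of the 10 genes called between gates and of their pairs called co-detected or apart were the same. Cd36 with Lpl then left the co-detected pairs and Trem2 with Folr2 joined them. UMIs of Cd79a, Ms4a1, Csf3r, Krt8, Krt18 or Epcam were found in 14878 of the macrophages, and no doublet caller was run.

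The level of a gene in a gate is its UMI sum over the UMI sum of all genes, in CPM. Because the assay counts 1 end of each transcript, CPM values of different genes were set side by side without a correction for length. Trem2 (ENSMUSG00000023992, chr17:48346401-48354147, plus strand of GRCm38) encodes the lipid-sensing receptor that signals through an adaptor shared with other myeloid receptors. Its level in macrophages was 409 CPM in the lowest library, 579 in the median and 719 in the highest. Trem2 was the most even of the 10 genes, with 1.76-fold between the highest and the lowest library. Msr1 (ENSMUSG00000025044, chr8:39581685-39642673, minus strand), the class A scavenger receptor for modified lipoproteins, was at 188 CPM in the lowest library, 243 in the median and 516 in the highest. Library 4 stood above the rest for Msr1, with library 10 next at 349.9 CPM.

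Cd36 (ENSMUSG00000002944, chr5:17781690-17888801, minus strand), a receptor for fatty acids and oxidized lipoproteins, was at 16.6 CPM in the lowest library, 97.1 in the median and 267 in the highest. It varied by 16.1-fold, the widest distance of the 10 genes over all 12 libraries, with libraries 10 and 4 highest and library 2 lowest. Without library 2 the distance was 7.99-fold for Cd36 and 8.86-fold for Lpl, which then varied more. Mrc1 (ENSMUSG00000026712, chr2:14229392-14332057, plus strand), the mannose receptor that takes up glycoproteins, was at 164 CPM in the lowest library, 322 in the median and 393 in the highest. Libraries 8, 9 and 1 were low for Mrc1, at 164, 179 and 194 CPM, and the other 9 lay between 283 and 393 CPM. Folr2 (ENSMUSG00000032725, chr7:101839988-101857194, minus strand), a folate receptor found on resident macrophages, was the rarest transcript, at 18.8 CPM in the lowest library, 28.5 in the median and 113 in the highest. Library 4 alone was above 100 CPM for Folr2, and the next library reached 45.6 CPM.

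Gpnmb (ENSMUSG00000029816, chr6:49036546-49070929, plus strand), a glycoprotein of phagosomes and lysosomes, was at 61.2 CPM in the lowest library, 109 in the median and 181 in the highest. Libraries 12, 4 and 10 were highest for Gpnmb, and libraries 1, 3 and 6 were lowest, at 61.2 to 66.5 CPM.

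Apoe (ENSMUSG00000002985, chr7:19696109-19699188, minus strand), which carries cholesterol and phospholipid, was by far the most abundant of the 10, at 10912 CPM in the lowest library, 18028 in the median and 27839.6 in the highest. Lpl (ENSMUSG00000015568, chr8:68880491-68907448, plus strand), the lipase that frees fatty acids from lipoproteins, was at 40.1 CPM in the lowest library, 153 in the median and 466 in the highest. The order of libraries for Lpl resembled that for Cd36, with libraries 10, 4 and 5 leading in that order and library 2 lowest for both genes. Fabp5 (ENSMUSG00000027533, chr3:10012548-10016607, plus strand), an intracellular fatty acid carrier, was at 635 CPM in the lowest library, 768 in the median and 1829 in the highest. Spp1 (ENSMUSG00000029304, chr5:104435118-104441050, plus strand), which encodes the secreted integrin ligand osteopontin, was at 698 CPM in the lowest library, 1232 in the median and 4252 in the highest. Library 10 was highest for Spp1, libraries 4 and 12 followed at 2975 and 2798 CPM, and libraries 2, 3, 6 and 9 lay at or under 845 CPM.

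**Figure D1:**
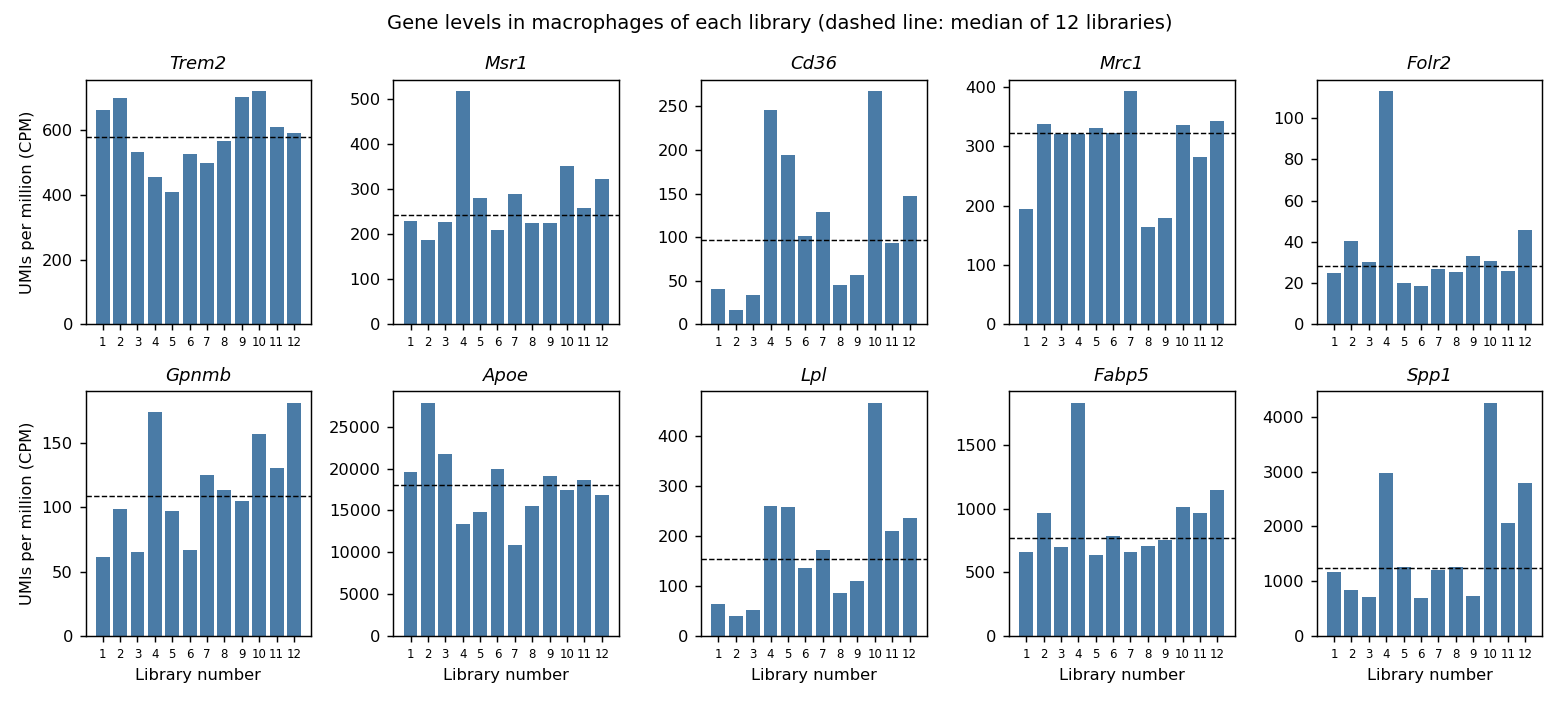
Level in CPM of each gene in the macrophages of libraries 1 to 12, 1 bar per library, with the median of the 12 libraries as a dashed line. Over the 12 libraries Cd36, Lpl and Spp1 differ most (16.1-, 11.6- and 6.09-fold from lowest to highest), Trem2 least (1.76-fold).

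The distance from the lowest to the highest library was set beside that of all 7284 genes with a median of at least 10 CPM in macrophages, whose median distance was 1.70-fold. All 10 genes were above that median: 99.7% of genes had a smaller distance than Cd36, 99.5% than Lpl, 98.6% than Spp1, 98.5% than Folr2 and 56.1% than Trem2. Single libraries set several of these distances: without library 4 Folr2 spanned 2.42-fold in place of 6.01-fold and Fabp5 1.81-fold, and without library 10 Lpl spanned 6.47-fold in place of 11.6-fold. Gpnmb, Fabp5, Msr1, Apoe and Mrc1 spanned 2.96-, 2.88-, 2.75-, 2.55- and 2.39-fold. Library 4 was highest or second for 7 of the genes, namely Fabp5, Msr1, Folr2, Gpnmb, Spp1, Lpl and Cd36, while its Apoe, at 13411 CPM, was among the lowest 2. Library 2 had the highest Apoe and the lowest Lpl, Cd36 and Msr1, but its Folr2, at 40.4 CPM, and its Fabp5, at 968 CPM, were above the median. Libraries 4 and 2 had 7495 and 8162.5 UMIs in their median macrophage. Because the labels tie no library to a mouse or a treatment, the part of treatment, mouse or library in these differences was not tested.

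Levels in macrophages were next compared with those in neutrophils, short-lived phagocytes that arrive from blood. A gene was called where the ratio of (CPM + 1) was at least 2-fold in every library with 50 cells or more in both gates. Genes compared had a median of at least 10 CPM in macrophages or in the other gate. As the 10 genes were chosen as macrophage genes, their calls beside the share of all genes are a description. In the 10 libraries with enough neutrophils, 5 of the 10 genes were called higher in macrophages (Trem2, Apoe, Msr1, Mrc1 and Folr2), against 9.07% of the 7686 genes compared. None was called lower, against 5.63% of genes. The median log2 ratio was 3.11 over the 10 genes and 0.86 over all genes. No p-value is given for these calls: each ratio was taken within a library, but libraries that no label ties to a mouse or group were not used as replicates. Mrc1 was at 3.79 to 61.0 CPM in neutrophils (median 10.7), and its log2 ratio ran from 1.65 to 5.89 (median 4.42). Trem2 was at 24.3 to 91.9 CPM in neutrophils (median 50.9), with log2 ratios of 2.53 to 4.47 (median 3.70). For both genes the highest neutrophil library was below the lowest macrophage library. Folr2 had no UMI in the neutrophils of 5 libraries. Its median in neutrophils was 1.36 CPM, so it passed the limit of 10 CPM through macrophages only. Taking the neutrophils at no fewer than 3 counts per library, which stand for 1.95 to 36.4 CPM, Folr2 was higher by at least 2-fold in 6 of 10 libraries and was no longer called. The median log2 ratio was then 1.24 in place of 4.03 for Folr2 and 2.47 in place of 3.93 for Lpl. The median of 3.11 over the 10 genes is lowered as well.

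Gpnmb and Spp1 were the genes with the smallest difference between macrophages and neutrophils. Gpnmb was at 17.0 to 382 CPM in neutrophils (median 84.5), close to its macrophage range, and its log2 ratio ran from -1.54 in library 11 to 2.81 in library 7 (median 0.60). Spp1 was at 169 to 4057.5 CPM in neutrophils (median 687), and its log2 ratio ran from -0.45 in library 4 to 2.79 in library 1 (median 0.89). For both genes the ranges of the gates overlapped. Cd36 and Fabp5 were higher in macrophages in all 10 libraries and at least 2-fold in 8, with median log2 ratios of 1.73 and 1.46. Lpl was higher by at least 2-fold in 9 of 10, and it had no UMI in the neutrophils of 2 libraries.

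Free RNA from lysed macrophages can enter any droplet, so the 10 genes were set beside the complement genes C1qa, C1qb and C1qc, which macrophages make and neutrophils, dendritic cells and T cells generally lack. Free RNA of 1 source keeps its genes in 1 ratio. The C1q level of neutrophils was 4.89% of that of macrophages in the median library. Trem2, Apoe, Mrc1, Lpl and Folr2 in neutrophils stood at 7.71, 8.97, 4.35, 7.45 and 4.04% of their macrophage level in the median library. Divided by the C1q share of the same library, the median over libraries was 1.34, 1.67, 1.13, 1.01 and 0.96, and all such multiples of the C1q share below are medians of ratios taken in this way. Trem2 and Apoe were above the C1q share in 9 of 10 libraries each. Lpl and Folr2, with few counts, ran from 0 to 7.46 and from 0 to 4.88 times that share and were over 2 times in 4 of 10 libraries each. Msr1, although called higher in macrophages, stood at 14.6% and at a median of 2.20 times the C1q share, over 2 times in 6 of 10 libraries. Gpnmb stood at 65.4% and Spp1 at 54.0%, with medians of 13.1 and 12.8 times the C1q share and over 2 times in 9 of 10 libraries each. Fabp5 and Cd36 stood at 6.77 and 4.17 times that share and over 2 times in every library. These neutrophil counts of Gpnmb, Spp1, Fabp5 and Cd36, and in most libraries of Msr1, are therefore not in the ratio of C1q. In T cells Fabp5, Spp1 and Cd36 were also off that ratio, at 10.1, 6.63 and 2.61 times the C1q share. They were over 2 times in 11, 9 and 8 of 11 libraries, while Gpnmb and Msr1 were at 1.41 and 1.29 times. Whether the neutrophil counts came from neutrophils, from another cell type or from unevenly mixed free RNA was not tested.

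Monocytes, the blood-borne precursors of many tumor macrophages, were compared in 7 libraries. Trem2, Apoe and Mrc1 were called higher in macrophages, 3 of 10 genes against 2.70% of the 7601 genes compared, and none was called lower, against 1.62%. The median log2 ratio was 1.45 over the 10 genes and 0.09 over all genes. Mrc1 was at 8.26 to 92.0 CPM in monocytes (median 35.7) and its log2 ratio was 1.80 to 4.28 (median 3.13). Apoe was at 2329 to 6359 CPM in monocytes (median 3913), with log2 ratios of 1.08 to 2.65 (median 2.23). Trem2 was at 96.5 to 231 CPM (median 161), with log2 ratios of 1.53 to 2.17 (median 1.79). Msr1 and Spp1 did not follow these 3 genes. Msr1 was at 155 to 508 CPM in monocytes (median 230.4) and its log2 ratio lay between -0.24 and 0.43 (median 0.02), so the levels overlapped. Spp1 was at 309.9 to 6033 CPM in monocytes (median 1466), and was higher in macrophages in only 2 of 7 libraries (log2 ratio -1.42 to 1.30, median -0.48). The share of cells with Spp1 after random reduction of each cell to 1000 UMIs went the other way, at 20.2% of monocytes and 35.0% of macrophages in the median library and higher in macrophages in 6 of 7, so no order is read for Spp1. Gpnmb and Fabp5 were higher in macrophages in all 7 libraries, with median log2 ratios of 1.42 and 1.07, but not 2-fold in each. Folr2 had median log2 ratio 2.53 and missed the call only in library 4, where its monocyte level was 60.3 CPM. Its median in monocytes was 2.42 CPM, so it passed the limit of 10 CPM through macrophages only. Its monocyte counts were under 3 UMIs in 5 of the 7 libraries. Taken at no fewer than 3 counts its median log2 ratio was 1.89. Lpl and Cd36 had medians of 0.84 and 1.48 with ratios on both sides of 0. The monocyte gate asked for Ly6c2 at or above C1q, so genes that go with C1q are lower in it in part by its definition.

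Dendritic cells, which present antigen, differed most from macrophages. In 12 libraries 8 of the 10 genes were called higher in macrophages, all but Fabp5 and Cd36, against 5.91% of the 7795 genes compared. None was called lower, against 4.16%. Of the 8 called, Folr2, Gpnmb, Msr1, Lpl and Mrc1 passed the limit of 10 CPM through macrophages only. Their medians in dendritic cells were 0.81, 3.69, 6.45, 7.29 and 8.78 CPM. The median log2 ratio was 4.45 over the 10 genes and 0.12 over all genes. With the mean of per-cell CPM Lpl was no longer called. Taken at no fewer than 3 counts, the 8 calls stood, although Folr2 had fewer than 3 UMIs in the dendritic cells of 10 libraries. The median log2 ratio was then 2.68 in place of 4.27 for Folr2, 3.88 in place of 4.55 for Gpnmb and 3.97 in place of 4.35 for Lpl. The median of 4.45 over the 10 genes is lowered as well. Trem2 was at 4.84 to 127 CPM in dendritic cells (median 13.3), and its log2 ratio of 2.04 to 6.58 (median 5.54) was lowest in library 6. The same library gave the lowest ratio of 7 of the 8 called genes, the exception being Lpl, and the highest Apoe in dendritic cells and T cells, at 5179 and 3881 CPM. It also had the shallowest macrophages of the series. In dendritic cells Trem2, Apoe, Msr1, Mrc1 and Folr2 stood at 0.98, 1.14, 1.02, 1.00 and 0.96 times the C1q share in the median library. Apoe was above the C1q share in 11 of 12 libraries and the other 4 in 6 each, with few counts behind Folr2. Of the other called genes, Spp1 was at 2.88 times and above the share in 12 of 12 libraries, Gpnmb at 1.83 and above it in 10, and Lpl at 1.31 and above it in 9.

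Fabp5 and Cd36 were the genes not called against dendritic cells. Fabp5 was at 615 to 4386 CPM in dendritic cells (median 1148), above macrophages in 11 of 12 libraries, with a log2 ratio of macrophages over dendritic cells of -1.26 to 0.19 (median -0.68). Its dendritic cell level was a median of 61.6 times what the C1q share gives. Cd36 was at 24.9 to 161 CPM in dendritic cells (median 57.5), 28.3 times the C1q share. It was higher in macrophages in 8 of 12 libraries, at least 2-fold in 4 and 2-fold lower in 1, and its log2 ratio ran from -1.55 in library 2 to 2.62 in library 10 (median 0.57). Cd36 varied less between libraries in dendritic cells than in macrophages, and the libraries at the 2 ends of its ratio were those at the ends of its macrophage level.

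**Figure D2:**
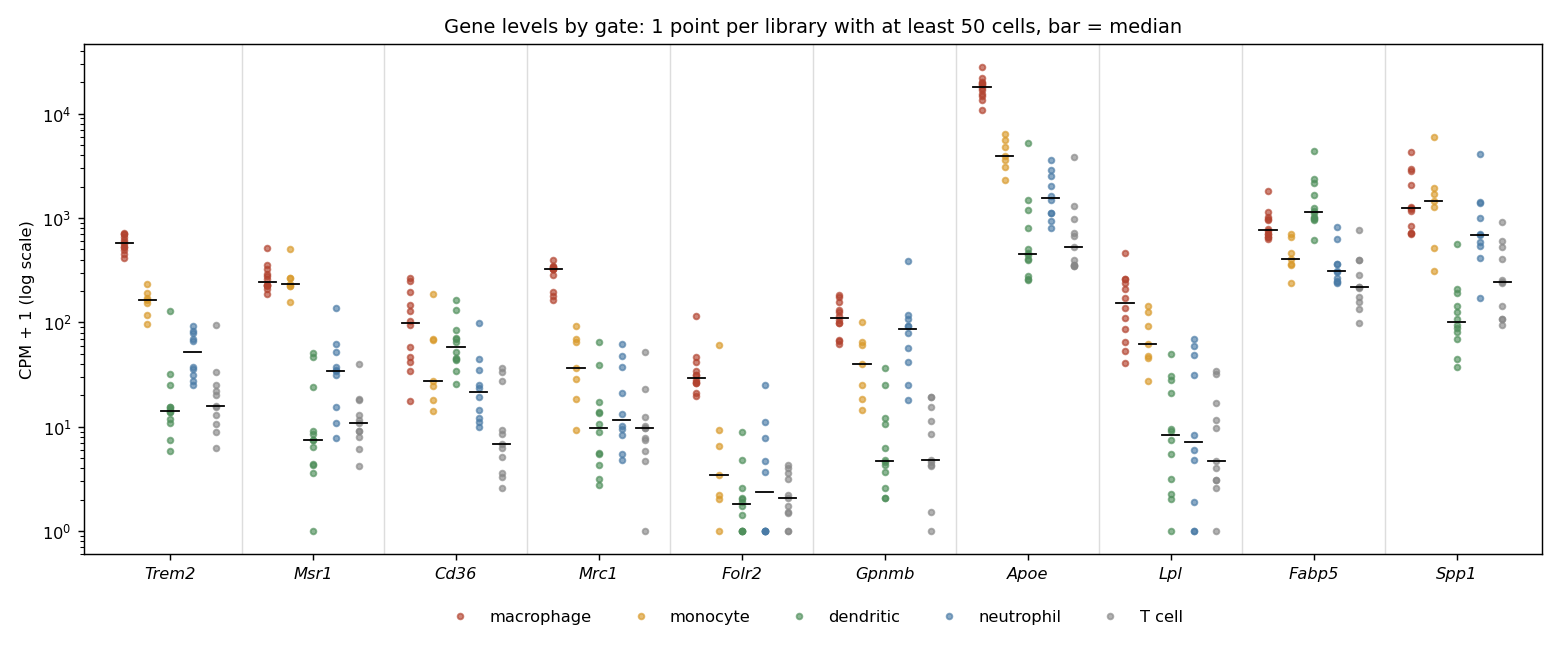
CPM + 1 on a log axis for each gene in macrophages, monocytes, dendritic cells, neutrophils and T cells, 1 point per library with at least 50 cells and a bar at the median. Trem2, Mrc1 and Apoe are separated from the other gates, whereas Spp1 overlaps between macrophages, monocytes and neutrophils and the median Fabp5 is highest in dendritic cells.

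Detection in single cells was compared on cells reduced by random draws to 1000 UMIs each (thinned), which left out 222 macrophages. Apoe was found in 97.3% of the thinned macrophages, Trem2 in 39.3%, Spp1 in 38.0%, Fabp5 in 36.2%, Mrc1 in 23.4%, Msr1 in 21.1%, Lpl in 10.2%, Cd36 in 8.19%, Gpnmb in 6.29% and Folr2 in 2.89%. The exact binomial 95% interval was 39.0 to 39.7% for Trem2 and 2.77 to 3.01% for Folr2, which covers counting error only, while the libraries ran from 32.6 to 47.7% for Trem2 and from 1.76 to 9.59% for Folr2. Before thinning, Trem2 was found in 83.8% of macrophages, so a thinned share is a measure of level and not of the number of expressing cells. Thinned T cells, which should lack most of these genes, gave 52.0% for Apoe, 3.30% for Trem2, 11.1% for Spp1, 11.9% for Fabp5, 1.79% for Mrc1, 1.74% for Msr1, 0.97% for Lpl, 0.94% for Cd36, 0.63% for Gpnmb and 0.24% for Folr2. T cells had a median of 2783 UMIs. All 10 macrophage shares were above these. The CPM of Apoe in T cells was 1.12 times the C1q share of the median library, and that of Spp1 and Fabp5 was 6.63 and 10.1 times.

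The genes differed in how unevenly their UMIs fell among macrophages. The variance over the mean of thinned counts (the Fano factor, which is about 1 for a gene spread evenly) had a median of 1.01 over 5265 genes found in at least 2% of macrophages. It was 11.2 for Apoe, 9.93 for Spp1, 3.57 for Fabp5, 2.23 for Gpnmb, 2.21 for Lpl and 1.68 for Cd36. The receptor genes other than Cd36 had lower values, with 1.29 for Mrc1, 1.26 for Folr2, 1.18 for Trem2 and 1.14 for Msr1, which were still above those of 91.7 to 96.0% of genes. The Fano factor rises with the mean of a gene, and Apoe, with a mean of 19.0 thinned UMIs per macrophage, had the highest factor but the least concentrated UMIs of the 10. Concentration, the share of UMIs in the tenth of macrophages with the most, depends in part on how many cells show a gene. It was 100% by definition for Gpnmb, Cd36 and Folr2, each found in under 10% of cells. The share pools all 12 libraries, so differences between libraries, 6.09-fold for Spp1, enter it. Spp1 was both common and uneven: the tenth of macrophages with the most Spp1 held 67.4% of its UMIs, against 27.2% for Apoe and 43.5% for Trem2. Its Fano factor ran from 3.10 to 20.6 over the libraries. Counting how many of the 10 genes a thinned macrophage showed, 1.00% of cells showed none, 16.0% showed 1, 27.8% showed 2, 26.4% showed 3, 16.8% showed 4, 7.94% showed 5 and 2.97% showed 6. Only 1 cell showed all 10.

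Co-detection asked which of these genes were found in the same macrophages. For each pair and library the log2 odds ratio of finding 1 gene with or without the other was taken on thinned cells, and a pair was called co-detected where the median over libraries was at least 1 and every library was above 0. Of 45 pairs, 11 were called co-detected, against 0.0404% of all gene pairs, and none was called apart, against 0.0638%. The median log2 odds ratio was 0.68 over the 45 pairs and 0.02 over all pairs; 41 pairs had a median above 0. The 10 genes differ from most background genes in how unevenly their UMIs fall among cells, so the count is a description.

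Gpnmb and Folr2 took part in 8 of the 11 pairs. The highest was Gpnmb with Fabp5, at a median log2 odds ratio of 2.63 (1.90 to 3.55 over 12 libraries). In the median library Fabp5 was found in 75.5% of macrophages with Gpnmb and in 31.7% of those without, and the lowest share with Gpnmb, 67.5%, was above the highest without, 45.1%. Among pairs with Gpnmb or Folr2, Gpnmb with Folr2 followed at 2.11 (1.20 to 2.92), although both are rare. Gpnmb was found in 21.6% of cells with Folr2 and in 5.99% of the others. Gpnmb with Spp1 was at 1.88 (1.02 to 2.43), with Spp1 in 62.2% of cells with Gpnmb and in 34.4% of the rest. Gpnmb with Cd36 was at 1.40 (0.04 to 2.69). Folr2 was also co-detected with Apoe at 2.05, Fabp5 at 1.51, Mrc1 at 1.19 and Spp1 at 1.01. The last of these is at the limit and was lost without any 1 of libraries 1, 4, 6, 8, 9 and 11. Folr2 with Apoe rests on the few cells with Folr2 among the 2037 thinned macrophages without Apoe. Folr2 was found in 0.106% of those in the median library and in none in the lowest. In a library with none, the ratio depends on the 0.5 added to each count. Folr2 with Apoe was lost in 4 of 9 other settings of the gate, filters and thinning. Gpnmb with Folr2 and Gpnmb with Cd36 were lost on cells thinned to 500 UMIs.

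Trem2 and Apoe, the receptor and one of its ligands, had a median log2 odds ratio of 2.24, with 0.54 in the lowest library. Because Apoe was found in nearly every macrophage, this value rests on the 2037 thinned macrophages without it. Trem2 was found in 40.3% of macrophages with Apoe and in 15.4% of those without, in the median library, and was higher with Apoe in 12 of 12. Mrc1 with Apoe was at 1.54 (0.44 to 2.74), with Mrc1 in 24.4% of macrophages with Apoe and in 10.2% of those without. Macrophages without Apoe had fewer UMIs before thinning than those with it, 6695 against 8890 in the median library, and this held in 12 of 12 libraries. Their mitochondrial share was also lower, 3.48% against 4.24% with Apoe, in 12 of 12 libraries. Macrophages with Mrc1 had a mitochondrial share of 4.79% against 4.07% without it, higher in 12 of 12 libraries, and those with Trem2 4.37% against 4.11%, higher in 11. The part of depth and mitochondrial share in these co-detections was not tested. Mrc1 with Apoe was not called with at least 3 UMIs of Adgre1 and Csf1r in the gate.

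Cd36 and Lpl take up and free fatty acids. Their log2 odds ratio was 1.27 (0.01 to 2.71), with Lpl in 22.9% of macrophages with Cd36 and in 8.85% of those without. This call was lost in 6 of these 9 settings. With Apoe, both genes had medians under 0, at -0.25 for Cd36 and -0.32 for Lpl, with single libraries on both sides of 0, and neither was called apart from it. Msr1 was in none of the called pairs, and the medians of its 9 pairs, all above 0, ran from 0.06 with Trem2 to 0.68 with Apoe. Msr1 with Apoe was called on cells thinned to 2000 UMIs. Trem2 with Gpnmb and Trem2 with Spp1 were above 0 in every library, at 0.84 and 0.44, and did not reach the limit.

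**Figure D3:**
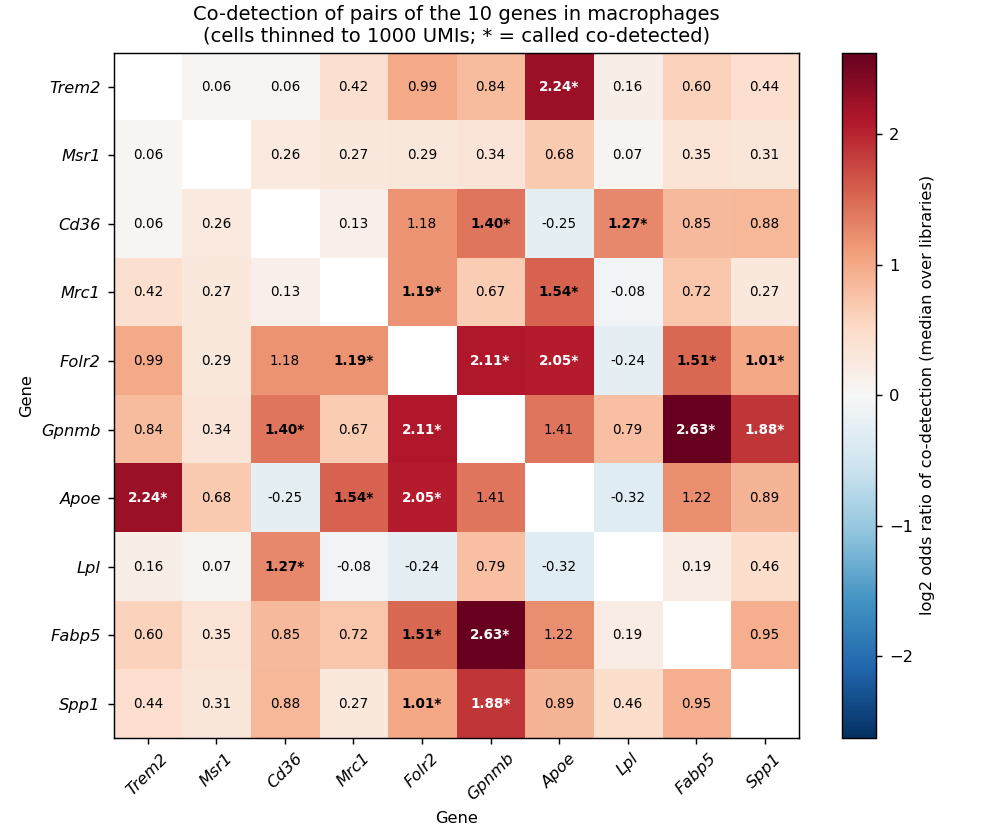
Median log2 odds ratio over libraries of finding 2 genes in the same macrophage, for all 45 pairs, with cells thinned to 1000 UMIs. Stars mark the 11 pairs called co-detected, 8 of which include Gpnmb or Folr2.

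The promoters of Gpnmb and Folr2, the genes in most co-detected pairs, are shown because they share a short motif. RefSeq windows from 250 bases before a start site to 50 after it were at hand for 7 of the 10 genes, not for Fabp5, Lpl and Msr1, in the GRCm38.p6 build. Both strands were searched for 4 motifs that do not overlap one another here. A gene was counted if any of its windows, 1 to 3 per gene, had the motif, while the shares given are of windows. TGACTCA, the motif of AP-1 factors, was found in the window of Gpnmb and in 1 of the 2 windows of Folr2, and in 5.20% of all 32851 windows. CATGTG, an E-box, was found for Mrc1 and Folr2 and in 14.2% of windows, and GAGGAA, the core of ETS factors such as PU.1, for Apoe, Mrc1, Spp1 and Trem2 and in 28.3%. CACGTG, the palindromic E-box, was found for none and in 7.15% of windows. A match says only that the letters are there. The windows below, cut at 30 bases after the start site, have TGACTCA in capitals. The one of Gpnmb is chr6:49036268-49036547 on the plus strand, with the motif just after the RefSeq start site of the window and before the start of the gene as annotated above. The one of Folr2 is chr7:101845302-101845581 on the minus strand, at a start site inside the gene as annotated, with the motif before it.
Gpnmb: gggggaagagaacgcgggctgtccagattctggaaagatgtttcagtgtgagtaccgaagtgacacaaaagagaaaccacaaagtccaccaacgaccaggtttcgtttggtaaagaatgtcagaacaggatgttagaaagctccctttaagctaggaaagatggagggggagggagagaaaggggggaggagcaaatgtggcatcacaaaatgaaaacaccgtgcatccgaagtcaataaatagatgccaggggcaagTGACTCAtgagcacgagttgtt
Folr2: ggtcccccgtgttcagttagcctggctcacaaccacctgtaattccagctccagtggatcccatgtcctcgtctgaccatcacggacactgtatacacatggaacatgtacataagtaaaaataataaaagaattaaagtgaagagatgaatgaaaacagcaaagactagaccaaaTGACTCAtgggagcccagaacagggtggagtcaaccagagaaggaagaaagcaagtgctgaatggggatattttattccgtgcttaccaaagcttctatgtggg

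The other genes found most often with each of the 10 were then listed, 3 per gene, among genes found in at least 2% of macrophages. Trem2 went with C1qa and C1qb, at 1.59 and 1.57 on the log2 odds ratio scale, and with the ferritin gene Ftl1 at 1.30, the last not in every library. Apoe went with C1qa at 3.90, the ferritin gene Fth1 at 3.82 and the chemokine gene Ccl8 at 3.79. These values of Apoe rest on the 2037 thinned macrophages without it, and that with Fth1 ran from 1.84 to 7.15 over libraries. Mrc1 went with C1qa at 1.85, C1qb at 1.48 and the carbonyl reductase gene Cbr2 at 1.44. These 3 genes thus had complement C1q as their first partner, and all 3 C1q genes were called co-detected with each of them. The background for such a call was 0.0761% of the genes evaluated for Trem2, 2.04% for Apoe and 0.209% for Mrc1.

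Gpnmb went with the lysosomal proteases Ctsb at 2.59 and Ctsd at 2.54 and with the stress cytokine Gdf15 at 2.28. Folr2 went with Ctsd at 3.02, Ccl8 at 2.21 and Ctsb at 2.12. Fabp5 went with Pmp22 at 1.77, Gdf15 at 1.73 and Ctsd at 1.51. Ctsd was thus among the first 3 partners of all 3 genes. No C1q gene was called with Gpnmb or Fabp5, and 1 of 3 was with Folr2.

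Spp1 went with the arginase gene Arg1 at 1.36, the matrix protease Mmp12 at 1.34 and podoplanin (Pdpn) at 1.12. Cd36 went with Mmp12 at 1.79, Vat1 at 1.30 and Mmp19 at 1.27, and Lpl with the ribonuclease gene Ear2 at 1.11, Mmp12 at 0.90 and the mitochondrial gene mt-Co3 at 0.85. Mmp12 was among the first 3 partners of each, but only with Cd36 did it reach both limits of a co-detected pair, since it was at -0.01 with Spp1 in the lowest library and had a median under 1 with Lpl. For Lpl the last value ran from -2.07 to 3.51 over libraries, and macrophages with Lpl had a mitochondrial share of 4.40% against 4.18% in those without. Msr1 had the weakest partners, Mmp13 at 0.97, Arg1 at 0.73 and F13a1 at 0.72, and none of 5255 genes was called with it.

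Gene lists chosen by function, with earlier results of these data known, were then set beside each gene, so the counts below are descriptions. Of 17 other genes listed for lipid handling, 5 were called co-detected with Apoe (the cholesterol exporter Abca1, Npc2, Cd63, Ctsd and Acp5) and 5 of the 16 evaluated with Gpnmb (the lipid droplet gene Plin2, Fabp4, Cd63, Lgals3 and Ctsd), 2 each with Fabp5, with Folr2 and with Cd36, 1 each with Spp1 and Mrc1, and none with Trem2, Lpl or Msr1. Several of those called are better known for other roles, Ctsd as a lysosomal protease, Acp5 as a phosphatase, Cd63 as a tetraspanin of lysosomes and Lgals3 as a lectin. Fabp4, another fatty acid carrier, went with Gpnmb at 3.44, Fabp5 at 3.27, Cd36 at 2.25 and Spp1 at 1.41. Fabp4 and Fabp5 are related in sequence, and whether reads were shared between them was not tested. The share of all genes evaluated that was called co-detected was 2.04% for Apoe, 1.16% for Gpnmb, 0.867% for Folr2, 0.400% for Fabp5, 0.248% for Cd36, 0.209% for Mrc1 and 0.133% for Spp1. These shares, like the first 3 partners, cover genes found in at least 2% of thinned macrophages, which leaves out Fabp4 at 1.79%. Over the list genes at that limit, 5 of 14 were called with Apoe, 4 of 14 with Gpnmb, 2 of 13 with Folr2, 1 of 14 each with Fabp5, Cd36 and Mrc1, and none with Spp1. Of 12 resident or perivascular genes, Lyve1, Cd163, Timd4 and Cd209f could not be evaluated. Of the rest, 6 of 8 were called with Apoe and 6 of 7 with Folr2, 5 of 8 with Gpnmb, 3 of 8 each with Fabp5 and Mrc1, and none with Trem2, Spp1, Lpl, Cd36 or Msr1. Ccl8 was called with Apoe, Gpnmb, Fabp5, Mrc1 and Folr2.

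Of the other scavenger and clearance receptors, Cd68, Mertk and Stab1 of 6 evaluated were called with Apoe, at 1.22, 2.04 and 1.67. Cd68 of 5 was called with Gpnmb at 1.13, while Olr1 was called apart from Apoe at -1.62. Stab1 is also on the resident or perivascular list, so its call with Apoe counts in both lists. Of the hypoxia, arginase and inflammatory genes, Arg1, Hilpda and Bnip3 of 11 evaluated were called with Gpnmb, Arg1 and Adm of 12 with Spp1, and Adm of 12 with Fabp5, beside the shares of all genes given above (1.16, 0.133 and 0.400%). Adm, Olr1 and Cxcl3 are under the 2% limit of these shares. Il1b, a cytokine of inflammatory macrophages, was called apart from Apoe at -1.18, from Gpnmb at -1.56 and from Folr2 at -1.52, and Cxcl3 apart from Apoe at -1.84. Of 8 interferon genes, all evaluated, Cxcl9 was called apart from Gpnmb and Folr2 and Cxcl10 from Gpnmb. Of all genes evaluated, 1.29% were called apart from Apoe, 1.05% from Gpnmb and 0.758% from Folr2.

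Genes of MHC class II antigen presentation were called apart from Folr2 (4 of 5 evaluated), Gpnmb (5 of 6), Spp1 (4 of 6) and Apoe (1 of 6, Ciita), and from none of the other 6 genes. For H2-Eb1 the log2 odds ratio was -2.10 with Folr2, -1.40 with Gpnmb and -1.11 with Spp1, and below 0 in every library evaluated. Lpl had a median of 0.16 over the list and was the only one of the 10 above 0. The share of all genes called apart from Spp1 was 0.0951%. Of the cell cycle genes, Birc5 was called apart from Gpnmb at -1.29 and no other call was made. Of 6 genes of other lineages, few could be evaluated and none was called with any of the 10.

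**Figure D4:**
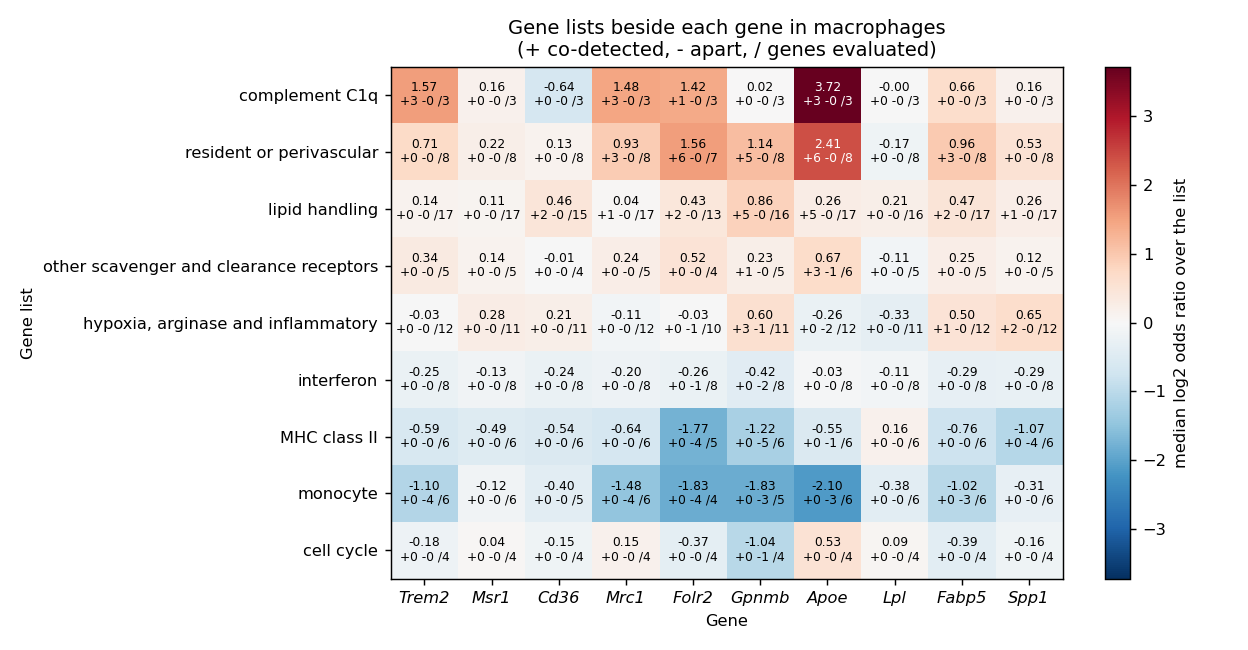
Median log2 odds ratio of co-detection with each gene over 9 gene lists in macrophages, with the number of list genes called co-detected (+) or apart (-) of those evaluated. All 3 C1q genes are called with Trem2, Mrc1 and Apoe and 1 of 3 with Folr2, and MHC class II and monocyte genes have low values with Folr2 and Gpnmb.

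Monocyte genes separated the list within the macrophage gate. They were called apart from Mrc1 (4 of 6 evaluated), Trem2 (4 of 6), Folr2 (4 of 4), Apoe (3 of 6), Fabp5 (3 of 6) and Gpnmb (3 of 5), and from none of Spp1, Lpl, Cd36 and Msr1. Of all genes evaluated, 0.190% were called apart from Mrc1, 0.0761% from Trem2 and 0.133% from Fabp5. Vcan and Hp are under the 2% limit of these shares, and over the other 4 genes the calls apart were 3 each from Mrc1, Trem2, Fabp5 and Gpnmb, 4 from Folr2 and 2 from Apoe. Ly6c2, the monocyte surface gene, had a log2 odds ratio of -2.19 with Gpnmb, -1.92 with Folr2, -1.90 with Mrc1, -1.29 with Fabp5 and -1.10 with Trem2.

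The same was measured on levels, with the gate divided into macrophages with at least 2 UMIs of Ly6c2 and no more C1q than Ly6c2, and the rest. The 10 libraries compared held 2382 such Ly6c2-high cells of 2463 in all. The monocyte gate used the same rule on Ly6c2 and C1q, with fewer UMIs of Adgre1 and Csf1r, so this comparison shares its rule with that against monocytes. Median Trem2, Apoe and Mrc1 were 204, 5452 and 56.5 CPM in the Ly6c2-high cells. They were 161, 3913 and 35.7 CPM in the monocyte gate and 607, 18266 and 325 CPM in the rest. The log2 ratio of the rest over the Ly6c2-high cells had a median of 0.08 over 7491 genes. It was 3.85 for Folr2, 2.62 for Gpnmb, 2.27 for Mrc1, 1.71 for Apoe, 1.47 for Trem2 and 1.40 for Fabp5. Mrc1 was at 56.5 CPM in the Ly6c2-high cells of the median library and 325 in the rest, and its log2 ratio was 1.68 to 3.22 over libraries. Cd36 and Lpl had medians of 1.05 and 0.96, with Cd36 above 0 in 10 of 10 libraries and Lpl in 8. Gpnmb and Fabp5 were above 0 in 9 of 10 libraries each, and Gpnmb had no UMI in the Ly6c2-high cells of 2 libraries. Folr2 rests on 95 UMIs in these cells, 62 of them in library 4, and had fewer than 3 in 6 libraries. Its median was 1.22 CPM in the Ly6c2-high cells and 29.2 CPM in the rest, so it was above 10 CPM only in the rest. With the Ly6c2-high cells taken at no fewer than 3 counts, the median was 3.01 for Folr2 and 2.56 for Gpnmb. Msr1 and Spp1 had medians near that of all genes or below it: Msr1 was at 245 and 244 CPM (log2 ratio -0.14 to 0.59, median 0.05), and Spp1 at 1249 and 1218 CPM (log2 ratio -1.28 to 2.16, median -0.30). The thinned share with Spp1 was 24.5% in Ly6c2-high cells and 35.7% in the rest in the median library and was higher in the rest in 9 of 10, against the CPM, so no order is read for Spp1. As C1q was used to divide the gate, ratios of genes found with C1q, Apoe, Trem2, Mrc1 and Folr2 above all, follow in part from the division. Their median log2 odds ratios over the 3 C1q genes were 3.72, 1.57, 1.48 and 1.42.

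**Figure D5:**
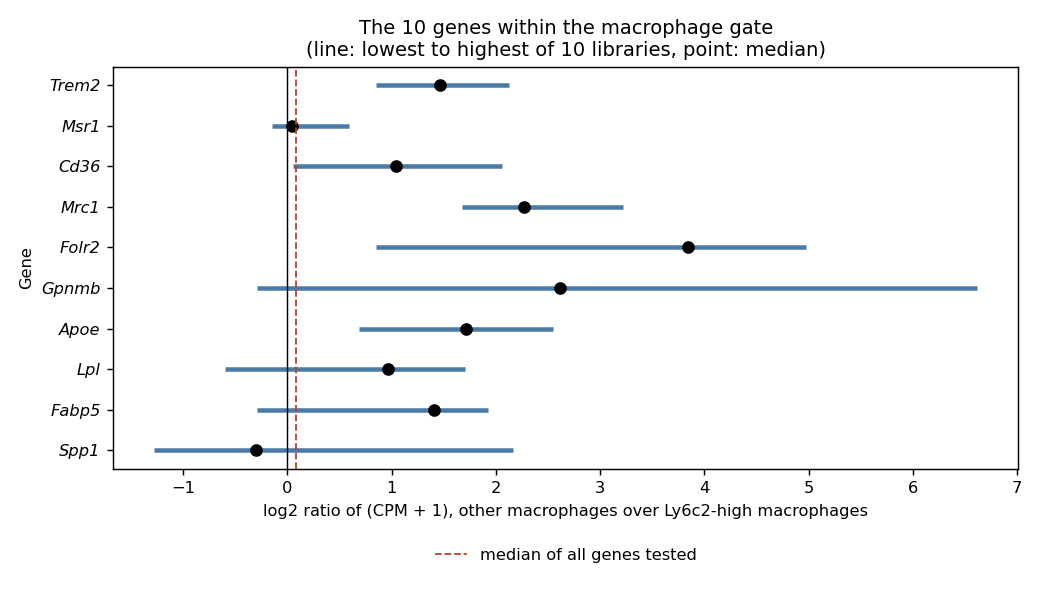
Log2 ratio of (CPM + 1) in other macrophages over Ly6c2-high macrophages, with a line from the lowest to the highest of 10 libraries, a point at the median and a dashed line at the median of all genes. Folr2, Gpnmb and Mrc1 lie farthest to the right, and Msr1 and Spp1 lie around 0.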

How the data were processed

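CD45+ cells of MC38 tumors were profiled in 12 mice with 10x Genomics 3′ v3 kits. UMI counts of the 12 libraries were deposited together as a single raw matrix. Its header gives software version 3.0.2, while the submitters' notes name Cell Ranger 2.1.1 and mm10; the aligner settings were not given. Kept barcodes had over 200 and under 5000 genes, with mitochondrial UMIs of 10% or less. The upper gene limit leaves out 2338 macrophages, 2015 of them in libraries 8 and 12. Library totals ran from 21649947 to 158760328 UMIs. Cells were gated on UMIs, summed by gate and library to CPM, and compared as log2 ratios with a pseudocount of 1 CPM. Genes compared between gates had a median of at least 10 CPM in either of the gates. Odds ratios had 0.5 added to each count and needed 5 expected cells with both genes in at least 6 libraries. No minimum was set for cells with neither gene. By choice no test was made over libraries, because no label ties them to mice or groups. The range over libraries stands in for error. The genes, the gates and the gene lists were chosen with earlier results of these data known, and 2 listed genes are not reported here. All 10 genes were named throughout, with the 3 strongest partners of each. Gene positions are from GENCODE M21, matched by identifier. Steps were tested on simulated data. Tools were Python 3.11.15 with scipy 1.17.1, numpy 2.4.6, numba 0.67.0, pandas 2.3.3 and matplotlib 3.10.9.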

Additional observations from a re-analysis of the deposited data

How the results depend on the processing

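The 10 genes' calls against neutrophils, monocytes and dendritic cells, the co-detected pairs and the size of the gate were recomputed with other gates, limits, pseudocounts and depths. A mitochondrial limit of 5% left 45791 macrophages, with 12 co-detected pairs, and gave Cd36 a distance of 10.7-fold between libraries, below the 11.6-fold of Lpl. Asking for at least 200 cells of both gates raised the genes called against neutrophils to 8, over fewer libraries. The mean of per-cell CPM gave 7 against neutrophils (Lpl and Cd36 joined), 4 against monocytes (Folr2 joined) and 7 against dendritic cells (Lpl was lost). Without thinning 26 pairs were called; depth then differs between cells. Leaving out 1 library at a time gave 5 to 6 genes called against neutrophils (Lpl joined without library 1), 3 to 4 against monocytes (Folr2 joined without library 4), 8 against dendritic cells and 10 to 14 pairs, with 14 without library 5. In these runs Spp1 with Folr2 was the only pair lost. Asking for at least 3 UMIs of Adgre1 and Csf1r left 8 pairs, without Apoe with Folr2, Apoe with Mrc1 and Lpl with Cd36. Over 9 changes of gate, filter and thinning, 5 of the 11 pairs were called in each (Trem2 with Apoe, Gpnmb with Fabp5 and with Spp1, Folr2 with Fabp5 and with Mrc1) and 6 were lost at least once. Taking the other gate at no fewer than 3 counts, chosen after seeing the data, left 4 genes called against neutrophils and turned the lowest log2 ratio negative for Folr2 (from 1.74 to -0.26) and Cd36 (from 0.45 to -0.12). Of 437 alternative values, 396 stayed within the limits set and 41 moved, most of them thinned shares. These limits were wide for calls, as changes from 11 to 8 pairs, from 5 to 7 genes and from 3 to 4 genes stayed within them. The values also include genes called lower and pairs called apart, which were 0 in the main run. No treatment comparison was made, paired or not, because the labels tie no library to a group. Gates were compared within each library, which pairs them, and by choice no test was run over libraries. Counts under 3 limit Folr2, Lpl, Cd36 and Mrc1 in 7, 5, 4 and 4 of 10 libraries of neutrophils, and Folr2 in 5 of 7 of monocytes.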
